A study of Mus musculus with 56 samples.

Results

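Lyz1 and Lyz2 are neighbouring lysozyme genes on mouse chromosome 10, and every ChIP-seq peak that the deposited lists assign to either of them is described here. The members were found by the gene name written beside each peak, in all 56 lists and for all 9 antibodies. This gave 350 of 1610519 peaks and 2 of 20352 genes named in the lists, with 216 peaks assigned to Lyz1 and 134 to Lyz2.

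Lysozyme is an enzyme that cuts the peptidoglycan of bacterial cell walls. Lyz2 encodes lysozyme M, the form made by macrophages and neutrophils, and Lyz1 encodes lysozyme P, best known from the Paneth cells of the small intestine. PU.1 is an ETS-family factor that specifies the macrophage lineage, p300 acetylates histones, and HDAC1, HDAC2, and HDAC3 remove acetyl groups. H3K27Ac marks active enhancers and promoters, RNAPII-pS5 and RNAPII-pS2 are the initiating and elongating forms of RNA polymerase II, and p65 is the NF-κB subunit that enters the nucleus after LPS.

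All samples were bone marrow-derived macrophages (BMDMs) of wild-type mice aged 8 to 12 weeks, from a C57BL/6 background, grown for 6 days with L929 supernatant as the source of M-CSF. In the 1 hr experiment, untreated cells (ctrl) were compared with cells given IL-4 (20 ng/ml) for 1 hr, with 2 samples per condition for each of 8 antibodies. In the LPS experiment, RNAPII-pS5, RNAPII-pS2, and p65 were measured under 4 conditions with 2 samples per condition. These were untreated cells (ctrl/ctrl), cells given IL-4 for 24 hr (IL-4 PT/ctrl), cells given LPS at 100 ng/ml for 1 hr (ctrl/LPS), and cells given IL-4 and then LPS (IL-4 PT/LPS). The labels do not say whether the 2 samples of a group came from different mice, and neither sex nor pooling of animals is given there.

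No reads were in the lists. Depth could therefore only be judged from the peaks per list, which ran from 8440 to 71027. Replicate 1 of the p300 ctrl samples stood apart, with 44787 peaks against 66710 to 69360 in the other p300 lists. Sample label and peak names disagree on the treatment in 4 lists, those of RNAPII-pS2 after 1 hr, so those samples are called by their labels and no direction is read from them. The antibody catalogue number on the HDAC3 labels is the one on the H3K27Ac labels. Of 7 macrophage markers, Mertk had an RNAPII-pS5 promoter peak in both ctrl samples, and none of 7 neutrophil, 5 B cell, 5 T cell, and 4 dendritic cell markers did. With a peak of any class counted, a measure chosen after seeing the data, 5 of 7 macrophage markers had RNAPII-pS5 (Adgre1 and Spi1 had none under those symbols), against 2 of 7, 1 of 5, 3 of 5, and 3 of 4 for the other types.

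Both genes lie on the minus strand of GRCm38 (mm10) and have 4 exons. Lyz1 spans 117287795 to 117292868 (5074 bp) and Lyz2 spans 117277541 to 117282272 (4732 bp), so their starts are 10596 bp apart and the gap between the genes is 5522 bp. The start of Lyz1 lies upstream, and a peak outside a gene is assigned to the nearer start. Peaks far upstream of the pair are therefore counted for Lyz1 and those downstream of the pair for Lyz2.

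The promoters and the elements that carried the strongest or the most changeable peaks are printed from the RefSeq GRCm38 genome, minus strand, 5′ to 3′, with capitals marking the ETS core (GGAA, or TTCC where it lies on the other strand), the core that PU.1 and related factors read. The promoter windows run from 250 to 51 bases before each start, and the elements are 300-base windows centred on the peaks. They stand at chr10:117292919-117293118, chr10:117282323-117282522, chr10:117301844-117302143, chr10:117320580-117320879, and chr10:117285016-117285315, in this order.
Lyz1 promoter: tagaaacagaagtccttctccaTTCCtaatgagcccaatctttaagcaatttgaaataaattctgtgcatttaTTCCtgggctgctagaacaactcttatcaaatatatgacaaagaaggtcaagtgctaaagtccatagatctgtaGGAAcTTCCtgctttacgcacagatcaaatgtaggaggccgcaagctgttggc
Lyz2 promoter: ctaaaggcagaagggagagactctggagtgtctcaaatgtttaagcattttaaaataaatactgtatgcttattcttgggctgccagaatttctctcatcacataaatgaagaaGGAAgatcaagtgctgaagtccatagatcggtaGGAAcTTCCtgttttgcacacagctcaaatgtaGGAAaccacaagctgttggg
element 9.1 kb before Lyz1: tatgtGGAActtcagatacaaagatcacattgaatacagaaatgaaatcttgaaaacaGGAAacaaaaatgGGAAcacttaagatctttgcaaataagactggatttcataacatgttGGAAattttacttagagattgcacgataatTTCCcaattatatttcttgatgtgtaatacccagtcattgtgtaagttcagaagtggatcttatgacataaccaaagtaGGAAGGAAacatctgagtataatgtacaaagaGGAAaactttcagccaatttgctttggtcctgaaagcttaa
element 27.8 kb before Lyz1: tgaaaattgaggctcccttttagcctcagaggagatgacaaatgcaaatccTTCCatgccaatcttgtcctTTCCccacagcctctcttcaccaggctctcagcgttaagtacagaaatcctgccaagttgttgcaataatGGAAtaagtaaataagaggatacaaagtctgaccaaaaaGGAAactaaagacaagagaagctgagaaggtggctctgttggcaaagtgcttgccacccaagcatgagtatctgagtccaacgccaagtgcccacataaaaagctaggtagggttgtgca
element 3.0 kb before Lyz2: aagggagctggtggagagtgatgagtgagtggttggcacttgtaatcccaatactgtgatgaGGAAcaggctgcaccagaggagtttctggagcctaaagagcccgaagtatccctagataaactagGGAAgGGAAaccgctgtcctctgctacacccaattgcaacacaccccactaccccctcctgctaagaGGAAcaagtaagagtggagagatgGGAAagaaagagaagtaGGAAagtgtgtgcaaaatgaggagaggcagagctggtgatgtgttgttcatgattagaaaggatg
The 50 bases just before the starts, which are not printed, were identical, and over 250 bases 79.4% of 252 alignment columns matched (74.3% over the printed windows). The ETS core occurred 4 times in each promoter, 8 times in the element 9.1 kb before Lyz1, 4 times in the element 27.8 kb before Lyz1, and 6 times in the element 3.0 kb before Lyz2. It is a common word, present in 89.2% of 32817 mouse promoters cut to 200 bases and in 96% of those cut to 300. The longer PU.1-type word GAGGAA was in neither promoter, once in the element 9.1 kb before Lyz1, and in 2 copies 3.0 kb before Lyz2. It was in 28.3% of 300-base promoter windows and in 62.1% of windows of PU.1 peaks from ctrl replicate 1. An NF-κB-type word (GGGNNNNNCC, either strand) was in none of the 5 sequences. It was in 43.4% of p65 peak windows of ctrl/LPS replicate 1, but also in 50.8% of 300-base and 37.2% of 200-base promoter windows. The STAT6-type word TTCNNNNGAA and the AP-1 word TGANTCA were also in none. A C/EBP-type word (TTGCNNAA) was in the Lyz1 promoter only, in 1 copy, against 8.1% of 200-base promoter windows.

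Because the genes are copies of each other, 16.4% of the 50-base words of Lyz1 and 20% of those of Lyz2 occur more than once in the genome, and 15.8% of the Lyz2 words are also in Lyz1. Reads from those stretches can be shared or lost between the genes. No word of the elements 9.1, 20.5, 27.8, 31.1, and 37.8 kb before Lyz1 occurs more than once, while 17.6% of those in the element 3.0 kb before Lyz2 and 9.2% of those at the Lyz1 3′ UTR do.

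Lyz1 had a peak in 56 of 56 lists and Lyz2 in 51. Lyz2 was without a peak in the 4 H3K27Ac lists and in the HDAC3 list of IL-4 replicate 2. The classes written beside the peaks differed between the genes. For Lyz1, 147 peaks were intergenic, 49 lay in the 3′ UTR, 18 in introns, 2 in an exon, and none at the promoter. For Lyz2, 58 were intergenic, 30 intronic, 21 at the transcript end, 13 at the promoter, 9 in the 3′ UTR, and 3 in an exon. PU.1 gave the most peaks (33 for Lyz1 and 24 for Lyz2 in 4 lists), H3K27Ac 8 and 0, and HDAC3 8 and 3.

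The element 9.1 kb before Lyz1 (117301553 to 117302432) was the most widely shared site, with a peak in 52 of 56 lists and for every antibody except H3K27Ac. Its share of the summed Lyz1 score had a median of 58.2% for PU.1, 49.4% for p300, 81% for HDAC3, 81.4% for p65, and 69.8% for RNAPII-pS2 in the LPS experiment, but of 24.8% for RNAPII-pS5 in the 1 hr experiment. The 3′ UTR of Lyz1, 4.5 kb after its start, had a peak in 49 lists. For Lyz2, the start region had a peak in 37 lists, the element 3.0 kb before it in 29, and the element 6.2 kb after the start, past the 3′ end of the gene, in 28. The element 3.0 kb before Lyz2 held a median of 58.2% of the Lyz2 score for PU.1 and 51.9% for p300, while the element past the 3′ end held 65.6% for RNAPII-pS5 and 53.8% for RNAPII-pS2 in the LPS experiment.

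**Figure D1:**
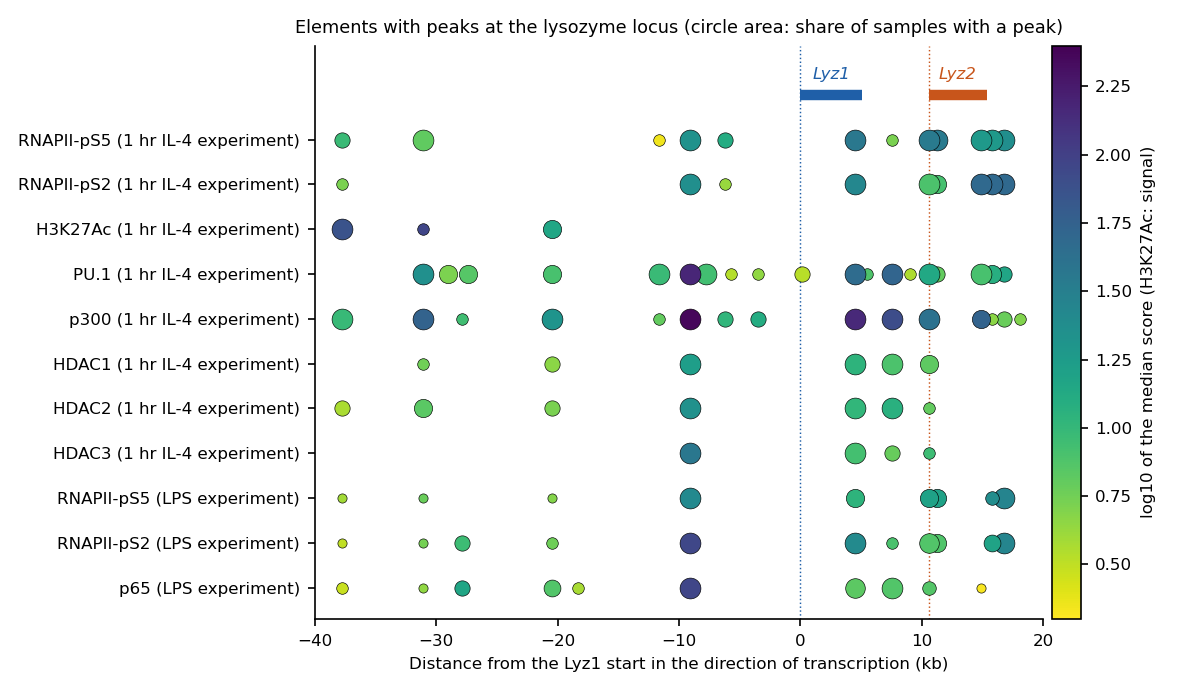
Elements with peaks of Lyz1 and Lyz2 by distance from the Lyz1 start (x axis, kb in the direction of transcription) and by antibody and experiment (rows). The area of a circle is the share of samples with a peak and its colour the log10 of the median score. The column 9.1 kb before Lyz1 is filled in every row except H3K27Ac, whose regions lie 20.5 to 37.8 kb before Lyz1.

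The score of a gene was the sum of the scores of its peaks, where MACS2 gave each peak a significance score (−log10, of p or of q) and HOMER gave each H3K27Ac region a signal of normalized tags. Ranked among all genes with a peak in the same list, Lyz1 stood above the 90th percentile in 33 of 56 lists and above the 95th in 15. Lyz2 did so in 12 and 6 lists. The median percentile of Lyz1 was 93.9 for PU.1, 93 for p300, 94.8 for p65, and 33.8 for H3K27Ac, so H3K27Ac was the antibody with its lowest rank. Lyz2 ranged most for RNAPII-pS5, from the 11.6th percentile in IL-4 PT/LPS to the 99.6th in ctrl/ctrl.

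**Figure D2:**
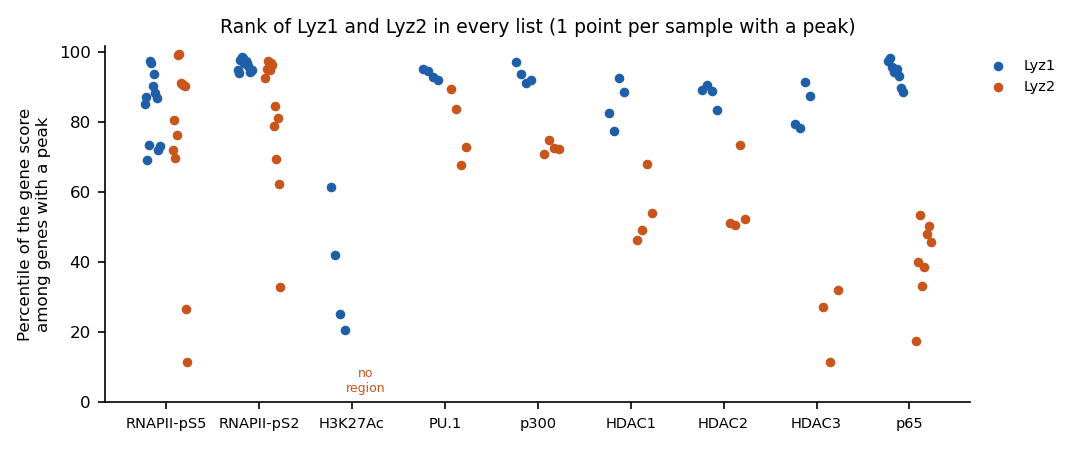
Percentile of the summed score of Lyz1 (blue) and Lyz2 (orange) among all genes with a peak in the same list (y axis), by antibody (x axis), with 1 point per sample that has a peak. Lyz1 lies above Lyz2 for PU.1, p300, HDAC3, and p65, and the Lyz2 points of RNAPII-pS5 spread from 11.6 to 99.6.

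Lyz2 and Lyz1 were compared within each sample as summed score per kb of gene, for the 8 antibodies with peaks at both. For p65, Lyz1 was 8.32-fold higher in mean, in 8 of 8 samples (mean log2 of Lyz2 over Lyz1 of −3.06 ± 0.63, SD, n = 8, exact two-sided sign-flip permutation test p = 0.00781, the smallest it can give, Benjamini-Hochberg adjusted p = 0.0352). For RNAPII-pS2, Lyz1 was 1.96-fold higher, in 9 of 12 samples (adjusted p = 0.0352 by the same exact test), but the conditions were unlike. The log2 of Lyz2 over Lyz1 was −0.13 and 0.034 in ctrl/ctrl and −0.63 to 0.24 in the 1 hr experiment, against −3.32 to −1.05 in the 6 treated samples of the LPS experiment. For RNAPII-pS5 the mean log2 was −0.11 ± 0.86 (SD, n = 12, exact permutation p = 0.68), a mean over samples that went both ways, with 0.68 and 1.03 in ctrl/ctrl and −1.41 and −2.08 in IL-4 PT/LPS. PU.1, p300, HDAC1, and HDAC2 were higher at Lyz1 in 4 of 4 samples, by 2.3, 3.02, 2.19, and 2.69-fold, and HDAC3 in 3 of 3 by 5.84-fold, but the exact permutation test cannot pass 0.05 with 3 or 4 samples. Without intergenic peaks the Lyz1 excess was gone for p65 (mean log2 of 0.39) and RNAPII-pS2 (0.0038), while the mean log2 was −0.32 for PU.1, −1.01 for p300, and −0.72 for HDAC1. Without any single p65 sample the p65 call was lost (exact permutation, adjusted p = 0.0625, from −3.15 to −2.90), since 7 samples cannot reach the threshold. The RNAPII-pS2 call was lost in the same exact test (adjusted p = 0.0703, at −0.76 or below) without any IL-4 PT/ctrl, ctrl/LPS, or IL-4 PT/LPS replicate and without replicate 2 labelled IL-4 of the 1 hr experiment.

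Over the 28 groups, the genes with percentiles most like those of Lyz1, of 2607 genes with a peak in every group, were Itgam (mean absolute difference of 6.94 percentile points) and Cd33 (7.09), both surface proteins of myeloid cells, and then Klf13, Mir5129, and Dppa3 (7.19 to 7.34). For Lyz2 they were Gm19710 (14.1), Cenpa, Rassf5, Tcirg1, and Pld4 (up to 16.9). Lyz1 and Lyz2 differed from each other by 27.6 points.

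In the 1 hr experiment the question was whether a short exposure to IL-4 changed occupancy at the lysozyme genes. Summed H3K27Ac fell at Lyz1, with 1 of its 3 distal regions called, and summed PU.1 fell at Lyz2. RNAPII-pS5, p300, HDAC1, HDAC2, and HDAC3 did not pass the test for either gene as a whole. Each sample was centred on the genes with a peak in all samples, and without this step the median of all genes shifted with IL-4 by 0.83 for p300, −0.50 for HDAC1, 0.43 for HDAC3, and 0.27 for PU.1.

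Summed H3K27Ac signal of Lyz1 was 206.3 and 111.6 in ctrl and 60.9 and 49.3 after IL-4. Both ctrl values lay above both IL-4 values, with a wide gap between the ctrl replicates. The difference was 2.76-fold (log2 of −1.46 ± 0.33, SE, limma with Benjamini-Hochberg adjustment over all genes, adjusted p = 0.0355), where 36.2% of 13035 genes were called. It was lost without IL-4 replicate 1 (−1.62, adjusted p = 0.0745) and without IL-4 replicate 2 (−1.32, adjusted p = 0.107). The gap between the ctrl replicates came from the region 31.1 kb before Lyz1, which had a signal of 91.8 (299 tags) in ctrl replicate 1 and no region in the other 3 lists. The region 37.8 kb before Lyz1 (117330107 to 117331188) was present in all 4, with 98.8 and 97.2 in ctrl and 49.3 in both IL-4 samples, or 322 and 311 tags against 149 and 142. It fell by 0.94 on the log2 scale (SE 0.065, limma adjusted p = 0.00166), where 43.4% of 28929 regions were called. RNAPII-pS5 had peaks of 12.4 and 6.45 at the same place in ctrl and none after IL-4. A fainter region 20.4 kb before Lyz1 had 15.7 and 14.4 in ctrl, 11.6 in IL-4 replicate 1, and none in replicate 2, and did not pass (adjusted p = 0.0831). The share called was large in this comparison, and the Lyz1 call is one of many.

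The summed PU.1 score of Lyz2 was 185.4 and 96.5 in ctrl and 73.3 and 82.7 after IL-4, and that of Lyz1 was 296.9 and 202.9 against 273.9 and 243.2. Lyz2 was 2.1-fold lower after IL-4 (log2 of −1.07 ± 0.23, SE, limma adjusted p = 0.028), with 1.75% of 15653 genes called. Of those calls 259 were higher and 15 lower, so Lyz2 was among the few that fell. Lyz1 did not pass (−0.22, 95% interval from −0.52 to 0.094, adjusted p = 0.574). The highest Lyz2 peak, 3.0 kb before the gene, had 86.9 and 47.4 in ctrl and 46.9 and 59.1 after IL-4, so its groups overlap. The ctrl samples also had peaks past the 3′ end of Lyz2, of 23.1 and 6.11 at 5.9 kb and of 20.6 and 12.1 at 5.2 kb after the start, and the IL-4 samples had none at 5.9 kb and 1 of 2.85 at 5.2 kb. Neither of these regions passed alone (adjusted p = 0.337 and 0.292). Without centring the Lyz2 change was −0.78 and not called, with 3 genes called in place of 274. Without ctrl replicate 1 it was −0.87 (adjusted p = 0.0539), without IL-4 replicate 1 −0.94 (adjusted p = 0.344), and without IL-4 replicate 2 −1.19 (adjusted p = 0.0577). At the element 9.1 kb before Lyz1 the PU.1 scores were 155.3 and 114.1 in ctrl and 174.1 and 146 after IL-4.

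p300, the acetyltransferase, had a Lyz1 score of 328.2 and 575.2 in ctrl and 478.4 and 517.4 after IL-4, and a Lyz2 score of 65.5 and 202.4 against 179 and 179.9. The lower value of each ctrl pair came from replicate 1, which also had the fewest peaks. Neither gene passed (log2 of −0.66, adjusted p = 0.0995, and −0.21, adjusted p = 0.305), where 20% of 15708 genes were called, 53.1% of them higher with centring and 98.6% without. Without centring the differences were 0.20 and 0.64. Without ctrl replicate 1 the Lyz1 difference was −0.22 and called (adjusted p = 0.04), and without ctrl replicate 2 it was −1.11 (adjusted p = 9.86e-08). Among single regions, where 21% of 67229 were called, the 3′ UTR of Lyz2 (117277739 to 117278229) had no peak and 16.3 in ctrl and 55.4 and 58.2 after IL-4. It met the entry rule only with its IL-4 peaks, and the missing peak was that of ctrl replicate 1, the p300 list with the fewest peaks. No test of it is given for that reason. Sites 3.5 kb before Lyz1 (3.09 and 22.8) and 6.1 kb after the Lyz2 start (6.47 and 5.69) had p300 peaks in ctrl only, and since they entered the fit through the ctrl samples alone no test of them is given. These 3 regions were chosen after their values were seen.

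For RNAPII-pS5 the Lyz1 score was 127.1 and 96.8 in ctrl and 75.9 and 78.5 after IL-4, and the Lyz2 score was 93.8 and 81.2 against 76.5 and 83.1. The Lyz1 groups did not overlap, but neither gene passed (Lyz1 log2 of −0.48 ± 0.13, SE, limma adjusted p = 0.15, and Lyz2 −0.09, adjusted p = 0.851), with 1.11% of 13481 genes called. Within Lyz1 the sites went different ways without passing. The element 9.1 kb before the start had 39.6 and 28 in ctrl and 15.7 and 10.6 after IL-4 (adjusted p = 0.0755). In the gene body (117289428 to 117290065) the scores were 25.3 and 19.3 in ctrl, none in IL-4 replicate 1, and 6.35 in replicate 2 (adjusted p = 0.0946). The 3′ UTR had 30.9 and 25.9 against 43.7 and 41.2 (adjusted p = 0.107), and a site 6.2 kb before Lyz1 had peaks after IL-4 only, of 12.9 and 12.7. At the start of Lyz2 the RNAPII-pS5 scores were 30.3 and 30.7 in ctrl and 39.1 and 41.9 after IL-4.

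For RNAPII-pS2, the elongating form, the samples labelled ctrl had Lyz1 scores of 56.2 and 63.5 and those labelled IL-4 78.5 and 106.8, and neither gene passed (Lyz1 adjusted p = 0.0637, Lyz2 adjusted p = 0.392, with 3.93% of 10617 genes called). In the Lyz1 gene body the samples labelled ctrl had no peak and 4.76, and those labelled IL-4 had 25.7 and 41.7. The order of the labelled groups is the opposite of that of RNAPII-pS5 at the same place. The same holds at a peak next to Lyz2, assigned to 9530003J23Rik and named after its values were seen, where RNAPII-pS5 had 109.3 and 77.2 in ctrl and 19.7 and 17.8 after IL-4, and RNAPII-pS2 had 4.78 and 9.64 in the samples labelled ctrl and 80 and 87.4 in those labelled IL-4.

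Among genes with a peak in the same list, the deacetylase scores of Lyz1 had median percentiles of 85.6 for HDAC1, 89.1 for HDAC2, and 83.6 for HDAC3. Those of Lyz2 were lower, at 51.7, 51.8, and 27.3. HDAC3 at Lyz1 was 38.4 and 27.4 in ctrl and 75.7 and 52.5 after IL-4, with no overlap of the groups, but did not pass (log2 of 0.54, 95% interval from −0.0037 to 1.09, limma adjusted p = 0.27), where 4.52% of 6015 genes were called. Most of it lay 9.1 kb before Lyz1, with 29.3 and 21.9 in ctrl and 62.1 and 44.8 after IL-4 (log2 of 0.77, adjusted p = 0.157). Lyz2 had HDAC3 peaks of 7.62 and 4.63 in ctrl, 9.19 in IL-4 replicate 1, and none in replicate 2. HDAC1 at Lyz1 was 34 and 23.6 against 39.3 and 29 and HDAC2 44.9 and 40.9 against 50 and 29.2. Both overlapped in these scores, though not after centring. Neither passed (log2 of 0.71, limma adjusted p = 0.6015, and −0.25, adjusted p = 0.865). For HDAC1 limma called 0% of 12319 genes (970 had an unadjusted p under 0.05), and for HDAC2 0.363% of 10464.

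**Figure D3:**
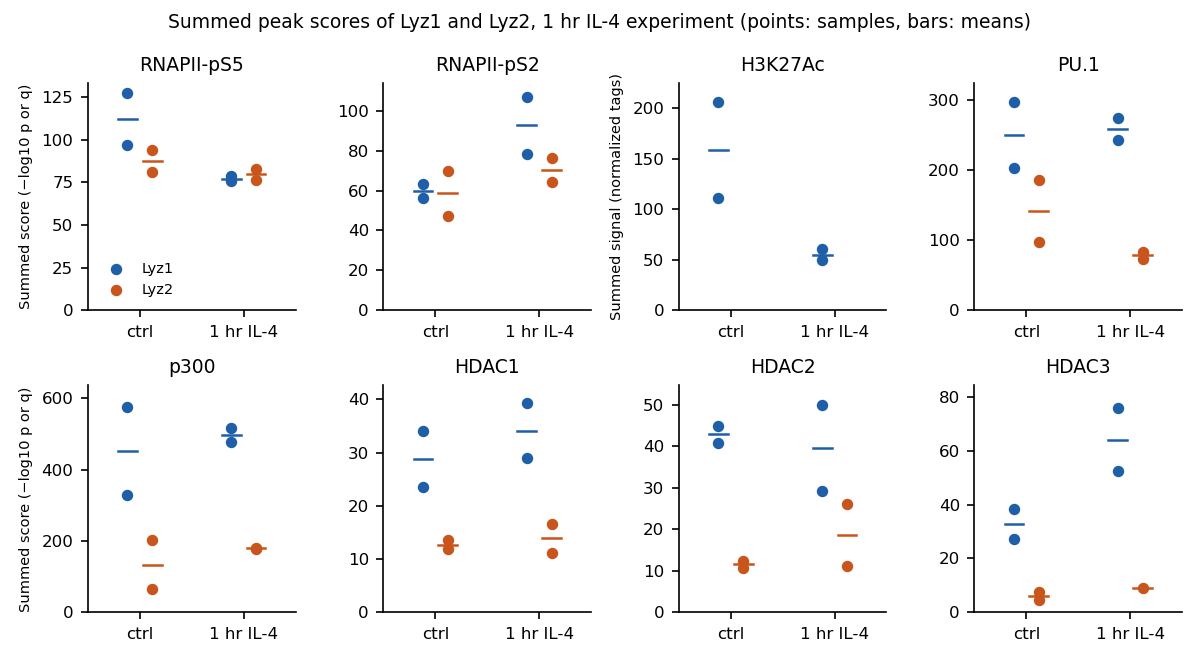
Summed scores of Lyz1 (blue) and Lyz2 (orange) in the 1 hr experiment, by antibody, with 1 point per sample and a bar at the mean of the 2 samples (y axis from 0, −log10 of p or q, for H3K27Ac a signal of normalized tags). The 2 ctrl samples of H3K27Ac lie above the 2 IL-4 samples, and in the RNAPII-pS2 panel the groups are those of the labels, which the peak names contradict.

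The LPS experiment asked what IL-4 for 24 hr, LPS for 1 hr, and both in turn did. Initiating polymerase at Lyz2 was lowest after both. Summed RNAPII-pS5 of Lyz2 was 112.2 and 125.8 in ctrl/ctrl, 41.6 and 42.5 in IL-4 PT/ctrl, 43.6 and 43.7 in ctrl/LPS, and 7.45 and 4.86 in IL-4 PT/LPS. The ctrl/ctrl samples lay above all others, IL-4 PT/LPS below all others, and IL-4 PT/ctrl and ctrl/LPS side by side between them. Lyz2 was 2.97-fold lower in IL-4 PT/ctrl than in ctrl/ctrl (log2 of −1.57 ± 0.25, SE, limma adjusted p = 0.0118), 2.17-fold lower in ctrl/LPS (−1.12, adjusted p = 0.0164), and 8.84-fold lower in IL-4 PT/LPS than in ctrl/LPS (−3.14 ± 0.25, adjusted p = 0.00486). Of 12477 genes, 9.97%, 28.4%, and 12.3% were called in these 3 comparisons. The first 2 comparisons share the ctrl/ctrl samples.

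The decrease under LPS was kept in all 8 alternatives and in all 8 fits without 1 sample. The decrease in IL-4 PT/ctrl was lost when any ctrl/ctrl or IL-4 PT/ctrl replicate was left out (−1.44 to −1.72), and that in ctrl/LPS when any ctrl/ctrl or ctrl/LPS replicate was (−0.9999 to −1.27). The effect of IL-4 PT was larger with LPS than without it (interaction log2 of −1.57 ± 0.35, SE, adjusted p = 0.0497, with 5.62% called), but this call was lost without any 1 of the 8 samples (adjusted p of 0.0888 to 0.137), fits in which limma called 0 genes for the interaction. Without centring, LPS shifted the median of all genes by −0.67 in place of −0.34, and the Lyz2 differences were −1.50, −1.45, and −2.86. The calls were 36.6% higher with centring and 23% without for LPS, 56.1% and 74.8% for IL-4 PT under LPS, and 44.8% and 61.6% for the interaction.

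**Figure D4:**
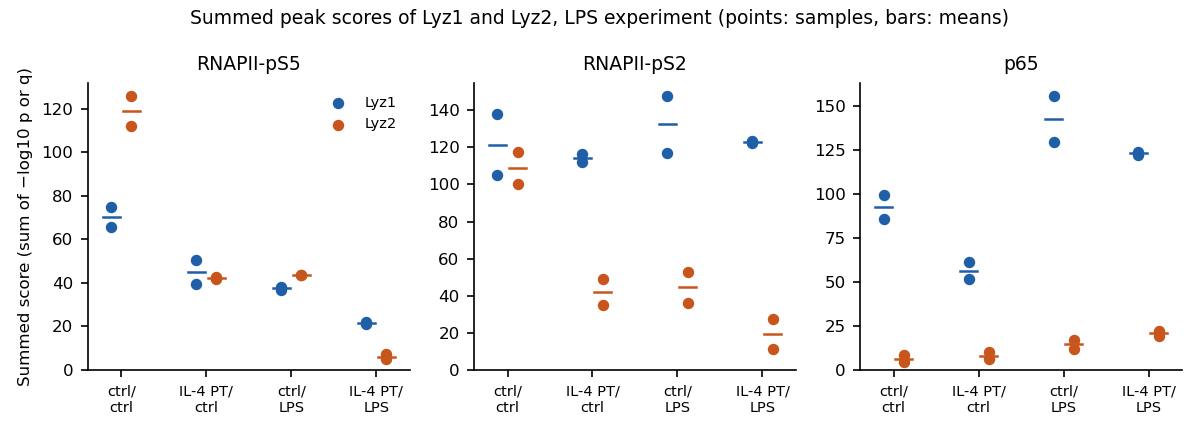
Summed scores of Lyz1 (blue) and Lyz2 (orange) for RNAPII-pS5, RNAPII-pS2, and p65 in the 4 conditions of the LPS experiment, with 1 point per sample and a bar at the mean of the 2 samples. RNAPII-pS5 of Lyz2 is highest in ctrl/ctrl (112.2 and 125.8) and lowest in IL-4 PT/LPS (7.45 and 4.86).

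Single regions of Lyz2 showed where this occurred, in fits for RNAPII-pS5 and RNAPII-pS2 regions that were added after seeing the data. At the Lyz2 start (117280168 to 117282306) RNAPII-pS5 was 24.8 and 23.6 in ctrl/ctrl, 16.4 and 14.5 in IL-4 PT/ctrl, 5.8 and 6.07 in ctrl/LPS, and without a peak in both IL-4 PT/LPS samples. It fell by 1.85 on the log2 scale with LPS (SE 0.23, limma adjusted p = 0.00254), where 30.4% of 27609 regions were called, and IL-4 PT alone did not pass (−0.67, adjusted p = 0.12, with 16.8% called). The loss of the peak in IL-4 PT/LPS was called (adjusted p = 0.00314, 14.4% called), as was the interaction (adjusted p = 0.0234, 17.7% called). Both rest on the value given to a missing peak. With that value 4 times as high the difference was −0.23 and the interaction 0.44, and neither was called. The interaction was also lost without any 1 of the 8 samples (−1.44 to −1.66, adjusted p from 0.0637 to 0.0874).

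Past the 3′ end of Lyz2 (117275071 to 117276510), where polymerase that has crossed the gene is often found, RNAPII-pS5 was 60 and 74.6 in ctrl/ctrl, 25.2 and 28.1 in IL-4 PT/ctrl, 37.8 and 28.5 in ctrl/LPS, and 7.45 and 4.86 in IL-4 PT/LPS. All 8 samples had a peak, and IL-4 PT/LPS lay below ctrl/LPS (log2 of −2.64 ± 0.28, SE, limma adjusted p = 0.00327), a call kept in all 13 alternatives and fits without 1 sample. IL-4 PT alone gave −1.34 (adjusted p = 0.0233), lost without any ctrl/ctrl or IL-4 PT/ctrl replicate (−1.18 to −1.56) and where peaks had to overlap by 50% (−1.27). The step to ctrl/LPS (−0.85, adjusted p = 0.0702) and the interaction (−1.29, adjusted p = 0.0827) did not pass.

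RNAPII-pS2 of Lyz2 had its highest values in ctrl/ctrl as well. The summed score was 117.6 and 100.4 in ctrl/ctrl, 35.2 and 48.9 in IL-4 PT/ctrl, 36.4 and 52.6 in ctrl/LPS, and 27.4 and 11.4 in IL-4 PT/LPS. LPS lowered it 2.9-fold (−1.54 ± 0.40, SE, limma adjusted p = 0.0224, with 32.6% of 13663 genes called, 46.6% of them higher with centring and 58.5% without), but not without centring (−1.31, adjusted p = 0.055). Leaving out 1 sample gave −1.21 to −1.83, and the call was lost without either ctrl/ctrl replicate and without ctrl/LPS replicate 1. IL-4 PT alone (−1.32, adjusted p = 0.0551, 19.2% called), IL-4 PT under LPS (−1.35, adjusted p = 0.0687, 11.5% called), and the interaction (−0.03, adjusted p = 0.981, 5.33% called, 44.5% of them higher with centring and 57.3% without) did not pass. Past the 3′ end, RNAPII-pS2 was 58.3 and 53.1 in ctrl/ctrl, 21.8 and 26.7 in IL-4 PT/ctrl, 28.9 and 29 in ctrl/LPS, and 10.7 and 5.51 in IL-4 PT/LPS. There the differences were −1.15 for IL-4 PT (adjusted p = 0.0397, with 22.6% of 39261 regions called), −1.13 for LPS (adjusted p = 0.0302, 34.3% called), and −1.86 for IL-4 PT under LPS (SE 0.30, adjusted p = 0.00774, 17.7% called). The last was kept in all 13 alternatives and fits without 1 sample, and the others were lost without centring (adjusted p = 0.0507 and 0.0783). Without 1 sample the call for IL-4 PT was lost in 6 of 8 fits (−1.07 to −1.21, kept only without an IL-4 PT/LPS replicate), and that for LPS without any ctrl/ctrl or ctrl/LPS replicate or IL-4 PT/ctrl replicate 2 (−1.07 to −1.19).

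**Figure D5:**
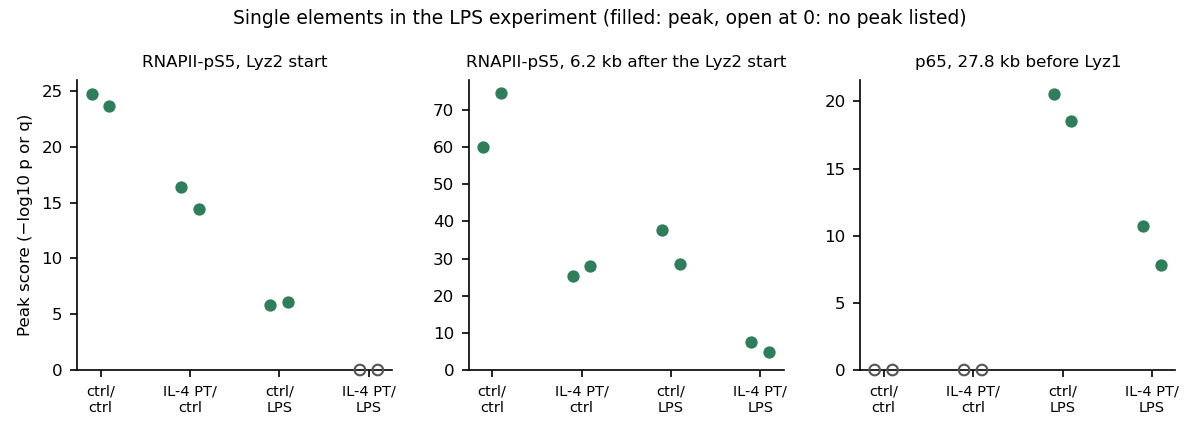
Scores at 3 elements in the LPS experiment, RNAPII-pS5 at the Lyz2 start and 6.2 kb after it, and p65 27.8 kb before Lyz1, with 1 point per sample and open points where no peak was called. RNAPII-pS5 is lowest or absent in IL-4 PT/LPS, and p65 has peaks only in the 4 samples given LPS.

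The summed polymerase score assigned to Lyz1 was also lowest after both treatments in the initiating form, but not in the elongating form. Much of this score lay outside the gene. The element 9.1 kb before Lyz1 held a median of 61.8% of it for RNAPII-pS5 and 69.8% for RNAPII-pS2. The Lyz1 RNAPII-pS5 score was 75 and 65.9 in ctrl/ctrl, 39.5 and 50.6 in IL-4 PT/ctrl, 38.3 and 36.9 in ctrl/LPS, and 21.2 and 22.1 in IL-4 PT/LPS, lower by 1.66-fold, 1.49-fold, and 2.12-fold in the same 3 comparisons (limma adjusted p = 0.0448, 0.0465, and 0.0134). The call for IL-4 PT was lost in all 8 fits without 1 sample (−0.57 to −0.88), that for LPS in 6 of 8 (−0.47 to −0.63, kept only without an IL-4 PT/ctrl replicate), and that for IL-4 PT under LPS without ctrl/LPS replicate 1 or either IL-4 PT/LPS replicate (−1.06 to −1.10). Most other settings ended the first 2 calls as well, among them the replicate block (adjusted p = 0.0752 and 0.0701). The interaction did not pass (−0.36, 95% interval from −0.94 to 0.22, adjusted p = 0.427). At the element 9.1 kb before Lyz1 alone, RNAPII-pS5 was 41.4 and 35.4 in ctrl/ctrl and 24.2 and 21.9 in IL-4 PT/ctrl. There it was 38.3 and 27.1 in ctrl/LPS and 13.2 and 22.1 in IL-4 PT/LPS. None of the same 3 comparisons passed at this element, and IL-4 PT under LPS stayed uncalled in 3 of 5 alternatives. RNAPII-pS2 of Lyz1 was 137.8 and 105.1 in ctrl/ctrl, 112.3 and 116.2 in IL-4 PT/ctrl, 147.8 and 117 in ctrl/LPS, and 123.6 and 122.1 in IL-4 PT/LPS, with no difference beyond −0.14 on the log2 scale and none called. A single region of it was called all the same, chosen after its values were seen. In the 3′ UTR of Lyz1, RNAPII-pS2 was 14.6 and 8.63 in ctrl/ctrl against 22.6 and 26.1 in IL-4 PT/ctrl and 25.2 and 25 in ctrl/LPS, and it rose by 1.17 (adjusted p = 0.0236) and 0.97 (adjusted p = 0.0324) on the log2 scale. The first call was lost without ctrl/ctrl replicate 2 (0.80) or either IL-4 PT/ctrl replicate (1.17 and 1.21), and the second in 5 of 8 fits without 1 sample (0.60 to 1.03), kept only without ctrl/ctrl replicate 1 or an IL-4 PT/LPS replicate. In the Lyz1 gene body, peaks of RNAPII-pS5 (7.29 and 7.94, and 14 and 6.58) and of RNAPII-pS2 (7 and 6.03, and 11 and 5.92) were present in ctrl/ctrl only. These regions entered the fit through those 2 samples alone, so no test of them is given. Whether Lyz1 and Lyz2 differed in their response was not tested.

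p65 gave its strongest lysozyme peak 9.1 kb before Lyz1 in every condition. There its score was 67.4 and 84.6 in ctrl/ctrl, 45.7 and 43.4 in IL-4 PT/ctrl, 118.1 and 98.6 in ctrl/LPS, and 109.8 and 102.5 in IL-4 PT/LPS. The scores were higher with LPS, but so were those of most genes (a shift of the median of 1.59 on the log2 scale), and the lists held 9556 to 11026 peaks without LPS and 26305 to 38955 with it. After centring the element was lower in ctrl/LPS (−0.53, adjusted p = 0.0347, where 46.9% of 37564 regions were called), and without centring higher (0.51, adjusted p = 0.0432). The centred call was lost in 5 of 8 fits without 1 sample (−0.39 to −0.57), kept only without ctrl/ctrl replicate 1, ctrl/LPS replicate 1, or IL-4 PT/LPS replicate 2. For Lyz1 as a whole (85.6 and 99.6, 61.3 and 51.5, 155.6 and 129.5, and 124.2 and 122 in the same order) ctrl/LPS was 2.03-fold lower than ctrl/ctrl after centring (log2 of −1.02 ± 0.15, SE, limma adjusted p = 0.00499) and higher by 0.62 without it (adjusted p = 0.016). The sign therefore depends on the scaling, and 36.8% of 12312 genes were called, 53.4% of them higher with centring and 98.1% without. IL-4 PT/LPS was 1.64-fold lower than ctrl/LPS (−0.71, adjusted p = 0.0277, 12.5% called, 79% of them higher with centring and 93.3% without). This was lost without centring (−0.21), and without 1 sample in 3 of 8 fits (−0.55 to −0.87), those without ctrl/LPS replicate 1 or either IL-4 PT/LPS replicate. IL-4 PT alone (−0.57, adjusted p = 0.0766, 7.51% called, 60.8% of them higher with centring and 50.4% without) and the interaction (−0.14, adjusted p = 0.748, 6.6% called, 61% of them higher with centring and 88.6% without) did not pass, although IL-4 PT alone did without centring (−0.72, adjusted p = 0.0471).

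The element 27.8 kb before Lyz1 (117320489 to 117320923) was a p65 site of LPS-treated cells. The 4 samples without LPS had no peak there, ctrl/LPS had 20.6 and 18.5, and IL-4 PT/LPS had 10.7 and 7.81. It entered the fit through the LPS-treated samples alone, so no test of LPS against ctrl/ctrl is given. The decrease by IL-4 PT under LPS was called (−1.36 ± 0.25, SE, limma adjusted p = 0.00979, with 30.9% called). No test of the interaction is given, since all samples without LPS carry the lowest score of the antibody and hold no measured effect of IL-4 PT. The decrease was lost only without IL-4 PT/LPS replicate 2 (−1.10, adjusted p = 0.068). RNAPII-pS2 had peaks at the same place, of 17.3 and 11.7 in ctrl/LPS, none and 6.72 in ctrl/ctrl, none in IL-4 PT/ctrl, and none and 4.45 in IL-4 PT/LPS. No NF-κB-type word of the kind searched is in the sequence printed for it. That word was in 43.4% of p65 peak windows of ctrl/LPS replicate 1 and in 50.8% of 300-base promoter windows.

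The element 20.5 kb before Lyz1 went the other way. Its p65 scores were 6.98 and 10.6 in ctrl/ctrl and 7.35 and 8.14 in IL-4 PT/ctrl, with no peak in ctrl/LPS and none and 4.89 in IL-4 PT/LPS. The element met the entry rule through the samples without LPS, so no test of ctrl/LPS against ctrl/ctrl is given. Both ctrl/LPS values stand in for a missing peak, and the log2 difference ran from −3.76 to −1.34 over the alternatives. IL-4 PT without LPS changed few p65 regions (4.37% called) and none of these. At Lyz2, p65 scores were low. They were 4.47 and 8.27 in ctrl/ctrl, 10.1 and 6.09 in IL-4 PT/ctrl, 12.2 and 16.9 in ctrl/LPS, and 22.4 and 19.5 in IL-4 PT/LPS, and no comparison passed. The Lyz2 start had p65 peaks in LPS-treated samples only, of 5.59 and 11 in ctrl/LPS and of 7.25 and none in IL-4 PT/LPS. The elements 27.8 and 20.5 kb before Lyz1 were chosen after their values were seen.

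The other genes of the lists fixed for comparison were counted by the same fits. Of 15 lysosomal hydrolases tested, the enzymes that degrade material in the compartment where lysozyme acts, 5 had lower RNAPII-pS5 in ctrl/LPS and none had higher (median log2 of −0.81 against −0.34 for all genes). Of all 12477 genes, 2244 were called lower and 1298 higher in that comparison (28.4% called). The cathepsin Ctsh fell from 97.8 and 75.5 to 11.3 and 12.8, and Ctsd, another cathepsin, from 37.3 and 34.2 to 5.25 and 8.5. Of 15 antibacterial effectors of myeloid cells, 3 had higher RNAPII-pS5 in ctrl/LPS and 1 lower. In both lists the share called, taken over both directions, was near the 28.4% of all genes. Irg1, which makes itaconate, had no peak in ctrl/ctrl and 47.7 and 51 in ctrl/LPS, and Cybb, the catalytic subunit of the phagocyte oxidase, rose from 41.1 and 19.9 to 63 and 60.5. With IL-4 PT alone each of these lists had 1 called gene of 15, where 9.97% of all genes were called, so neither share stood apart from that of all genes. The called genes were the bone-resorbing cathepsin Ctsk, higher (11.6 and 7.83 to 37.5 and 40.7), and the oxidase subunit Ncf1, lower (50 and 44.4 to 17.8 in both).

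Under LPS, IL-4 PT left 2 of 15 hydrolases higher in RNAPII-pS5 and none lower, and 1 of 15 effectors lower and none higher, where 12.3% of 12477 genes were called (859 higher and 671 lower). Of 3 other lysozyme family genes with RNAPII-pS5 values, Lyzl4 had 39.8 and 20.2 and Lyzl1 7.25 and 18 in ctrl/ctrl. Neither had a peak in ctrl/LPS. Both met the entry rule through their peaks without LPS, so no call of them for LPS is given. Of 6 locus neighbours, 2 were higher and none lower with IL-4 PT under LPS, against the 12.3% called of all genes, among them Yeats4, with 3.63 and 7.68 in ctrl/LPS and 39.9 and 32 in IL-4 PT/LPS. With 671 of all 12477 genes called lower in that comparison, the absence of a lower call among 6 neighbours did not stand apart from all genes.

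In the 1 hr experiment, H3K27Ac was called lower for 8 and higher for 3 of 16 antibacterial effectors, lower for 4 and higher for 4 of 12 hydrolases, and lower for 3 and higher for none of 8 locus neighbours. Of all 13035 genes 36.2% were called (2638 lower and 2084 higher), so the share of neighbours called was near that of all genes. Ncf4, an oxidase subunit, rose from 448 and 407 to 1150 and 1140, and Psap, the precursor of the saposins, from 214 and 185 to 755 and 707. Slpi, an inhibitor of leukocyte proteases, fell from 42.6 and 45 to 23.5 and 16.7. Best3, Yeats4, and Mdm2, which lie near Lyz1 and Lyz2, fell by 0.75, 0.35, and 0.19 on the log2 scale. RNAPII-pS5 was called for none of the 15 effectors tested and for 1 of 16 hydrolases, with 1.11% called of all genes. It was Ctsh (147 and 118 to 62 and 68.8).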

How the data were processed

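ChIP-seq was done on BMDMs fixed with DSG and formaldehyde, with 56 samples in 28 groups of 2. The authors aligned reads to mm10 with BWA, removed blacklisted regions, and called peaks with MACS2, and the deposited lists carry for each peak a score that the values show to be a −log10 of p or q (which of them is not given). H3K27Ac regions of 1001 bp were called by the authors with HOMER, whose normalized tag number is the signal in those files. The submitters' processing notes name BWA 0.7.10, HOMER 4.2, MACS2 2.0.10, and SAMtools 0.1.19. HOMER annotations beside the peaks gave the gene names. The files hold no reads, so intervals cannot be set from depth.

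From the lists, scores were summed per gene or kept as the highest per region (peaks merged at 1 bp of overlap). Where a sample had no peak, the smallest score found for that antibody stood in. Values were taken to log2, and the median over features with a peak in all samples of the fit was subtracted from each sample. Features with a peak in at least 2 samples entered limma 3.58.1 (lmFit, contrasts.fit, and eBayes with trend, R 4.3.3), with Benjamini-Hochberg adjustment over all of them and calls at an adjusted p of at most 0.05. All adjusted p-values are from limma unless an exact permutation test is named. The interaction is the effect of IL-4 PT with LPS minus that without. The fits were checked on simulated data. Lyz2 and Lyz1 were compared by an exact sign-flip test, planned for 9 antibodies and done for 8, since H3K27Ac had no region at Lyz2. Other steps used Python 3.11.15, pandas 2.3.3, NumPy 2.4.6, and SciPy 1.17.1.

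The regions planned for naming were those over each start and, for each antibody, those with the highest mean score. Any other region named was chosen after its values were seen, also where this is not said beside it. Of the planned macrophage markers, 1 is not reported here. The members and gene lists were chosen with earlier results of these data known. The paper's legends describe the ChIP-seq data as independent biological replicates, while the labels name no mice. If the samples of a group came from the same animals, the p-values do not measure the spread between mice. Alternatives changed the centring, the value of a missing peak, the sum, the intergenic peaks, the peak threshold, the overlap, the filter, the replicate block, and the samples.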

Additional observations from a re-analysis of the deposited data

Results flagged for a closer look

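The limma interaction passed its threshold for 1 gene score and 2 single regions of Lyz1 and Lyz2, both regions with filled values for missing peaks. Another 6 regions had a value past the threshold that was set by how they entered the fit. The gene score was RNAPII-pS5 of Lyz2, where the interaction was −1.57 on the log2 scale (adjusted p = 0.0497), with 41.6 and 42.5 in IL-4 PT/ctrl against 112.2 and 125.8 in ctrl/ctrl, and 7.45 and 4.86 in IL-4 PT/LPS against 43.6 and 43.7 in ctrl/LPS.

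RNAPII-pS5 at the Lyz2 start alone had an interaction of −1.56 (adjusted p = 0.0234). Both IL-4 PT/LPS samples had no peak there, and the sign turned with the value given to a missing peak (0.44 with 4 times that value). For p65 at the element 27.8 kb before Lyz1 the interaction was −1.56. The 4 samples without LPS had no peak and so carry that value, and no test of this interaction is given. These 3 interactions each fell short of the threshold in at least 6 of the 8 fits without 1 sample.

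These 6 regions had a peak in a single condition, through which alone they entered the fit, and the other 6 of 8 samples carry the value of a missing peak. Their values are given with no test. In the Lyz1 gene body, where the peaks were those of ctrl/ctrl, the interaction was 2.23 and 2.56 for RNAPII-pS5 (3.1 and 1.7 kb after the start) and 2.23 and 2.54 for RNAPII-pS2 (3.1 and 1.6 kb). RNAPII-pS2 at the element 3.0 kb before Lyz2 had peaks in IL-4 PT/LPS only, of 10.2 and 5.89, with an interaction of 2.48. p65 had peaks 18.3 kb before Lyz1 in ctrl/LPS only, of 4.02 and 3.45, with an interaction of −1.97. All 6 were chosen after their values were seen. Groups of 2 samples were too small for a test of single outlying samples.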

How the results depend on the processing

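Results were recomputed with 1 choice changed at a time. Direction and side of the threshold were kept by 224 gene differences (35 lost a call, 18 gained 1, and 30 turned sign), by 276 region differences (24, 19, and 19), and by 13 comparisons of Lyz2 with Lyz1. Values below are log2 differences, each with its comparison, and the cause of a change was not tested. For RNAPII-pS2 after 1 hr IL-4 the signs follow the labels, which the peak names contradict, so no direction is read from them. Peak scores rise with depth, which is unknown here, so an absent or low score cannot be told apart from low depth.

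Fewer genes were called without centring, 208 in place of 3137 for p300, 3 in place of 274 for PU.1, 100 in place of 150 for RNAPII-pS5 after 1 hr IL-4, and 0 in place of 272 for HDAC3, 38 for HDAC2, and 417 for RNAPII-pS2, where limma left 909, 551, and 1387 at an unadjusted p under 0.05. More were called for p65, 2551 in place of 1545 for IL-4 PT under LPS and 1753 in place of 813 for the interaction. Over all alternatives the genes called ranged from 0 to 44 for HDAC1 (0 as reported), 50 to 427 for RNAPII-pS5 after 1 hr IL-4, 745 to 2155 (1530) for RNAPII-pS5 and 134 to 4085 (1545) for p65 in IL-4 PT under LPS, 495 to 1238 (1244) and 422 to 930 (925) in IL-4 PT, 1521 to 3994 (3542) and 1677 to 8285 (4535) in LPS, and 1 to 2727 for the p65 interaction. For RNAPII-pS2 they ranged from 874 to 1469 (1566), 1702 to 2505 (2624), and 2652 to 4393 (4452) in the same 3 comparisons. Without centring, calls were lost at −0.78 for Lyz2 in PU.1 (after 1 hr IL-4), −0.65 for Lyz1 in RNAPII-pS5 (IL-4 PT), −1.31 for Lyz2 in RNAPII-pS2 (LPS), −0.21 for Lyz1 in p65 (IL-4 PT under LPS), and −1.36 for Lyz2 in RNAPII-pS5 (interaction). The sign turned at 0.073 for Lyz1 in PU.1, 0.20 for Lyz1 in p300, 0.64 for Lyz2 in p300, 0.26 for 9.1 kb before the Lyz1 start in PU.1, 0.37 for 10.6 kb after the Lyz1 start in p300, and 0.26 for 7.7 kb after the Lyz1 start in p300 (after 1 hr IL-4), −0.15 for 20.5 kb before the Lyz1 start in p65 (IL-4 PT), 0.13 for Lyz1 in RNAPII-pS2, 0.62 for Lyz1 in p65, 1.24 for Lyz2 in p65, 0.029 for 7.7 kb after the Lyz1 start in p65, 0.51 for 9.1 kb before the Lyz1 start in p65, and 0.10 for 9.1 kb before the Lyz1 start in RNAPII-pS2 (LPS), and 0.082 for Lyz2 in RNAPII-pS2, 0.51 for Lyz1 in p65, and 0.18 for Lyz2 in p65 (interaction). Calls were gained at −0.72 for Lyz1 in p65 (IL-4 PT).

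The replicate numbers did not pair the samples (26 correlations of the deviations of same-numbered samples, −0.027 to 0.080). The fit with the replicate block called 0 genes in place of 701 for the RNAPII-pS5 interaction, 1 in place of 813 for that of p65, 238 in place of 728 for that of RNAPII-pS2, 0 in place of 38 for HDAC2, 781 in place of 274 for PU.1, 344 in place of 150 for RNAPII-pS5 after 1 hr IL-4, and 668 in place of 417 for RNAPII-pS2 there. With the replicate block, calls were lost at −0.73 for Lyz1 in RNAPII-pS5 (IL-4 PT), −0.58 for Lyz1 in RNAPII-pS5 (LPS), and −1.57 for Lyz2 in RNAPII-pS5 (interaction). Gained calls stood at 0.70 for Lyz1 in RNAPII-pS2 and −0.66 for Lyz1 in p300 (after 1 hr IL-4).

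With a missing peak given 4 times the value, calls were lost at −1.45 for Lyz2 in RNAPII-pS5 (interaction). The sign turned at −0.46 for 10.6 kb after the Lyz1 start in p65 (LPS), −0.27 for 20.5 kb before the Lyz1 start in p65 (IL-4 PT under LPS), and 0.44 for 11.6 kb after the Lyz1 start in RNAPII-pS5 and −0.31 for 20.5 kb before the Lyz1 start in p65 (interaction). Newly called were 0.70 for Lyz1 in RNAPII-pS2 (after 1 hr IL-4), −1.32 for Lyz2 in RNAPII-pS2 (IL-4 PT), and −1.35 for Lyz2 in RNAPII-pS2 (IL-4 PT under LPS). With the highest score in place of the sum, calls were lost at −0.64 for Lyz2 in PU.1 (after 1 hr IL-4), −0.72 for Lyz1 in RNAPII-pS5 (IL-4 PT), −0.030 for Lyz1 in RNAPII-pS5 and −0.81 for Lyz2 in RNAPII-pS5 (LPS), −1.14 for Lyz1 in RNAPII-pS5 and −0.33 for Lyz1 in p65 (IL-4 PT under LPS), −1.33 for Lyz2 in RNAPII-pS5 (interaction), and −3.03 for p65 and −0.94 for RNAPII-pS2 (Lyz2 against Lyz1). The sign turned at −0.021 for Lyz2 in HDAC1, 0.039 for Lyz1 in HDAC2, −0.034 for Lyz2 in RNAPII-pS2, 0.37 for Lyz1 in RNAPII-pS5, and 0.43 for Lyz2 in RNAPII-pS5 (after 1 hr IL-4), 0.19 for Lyz1 in RNAPII-pS2 (IL-4 PT), and 0.23 for Lyz1 in p65 and 0.033 for Lyz2 in p65 (interaction). Gained calls stood at −0.53 for Lyz2 in p300 (after 1 hr IL-4), −1.13 for Lyz2 in RNAPII-pS2 (IL-4 PT), and −1.90 for Lyz2 in RNAPII-pS2 (IL-4 PT under LPS). Without intergenic peaks, calls were lost at −1.46 for Lyz2 in PU.1 (after 1 hr IL-4), −0.63 for Lyz1 in RNAPII-pS5 and −1.81 for Lyz2 in RNAPII-pS5 (IL-4 PT), −2.09 for Lyz2 in RNAPII-pS2, −2.54 for Lyz1 in RNAPII-pS5, and −0.76 for Lyz1 in p65 (LPS), −0.53 for Lyz1 in RNAPII-pS5 and −1.64 for Lyz1 in p65 (IL-4 PT under LPS), and −1.28 for Lyz2 in RNAPII-pS5 (interaction). The sign turned at 0.80 for Lyz1 in HDAC2, 0.12 for Lyz2 in RNAPII-pS5, and 0.50 for Lyz2 in p300 (after 1 hr IL-4), 0.066 for Lyz1 in RNAPII-pS2 (IL-4 PT), 1.06 for Lyz2 in p65 (LPS), 0.19 for Lyz1 in RNAPII-pS2 and −1.61 for Lyz2 in p65 (IL-4 PT under LPS), 0.12 for Lyz1 in RNAPII-pS2 and 0.098 for Lyz1 in RNAPII-pS5 (interaction), and 0.39 for p65, 0.0038 for RNAPII-pS2, and 0.38 for RNAPII-pS5 (Lyz2 against Lyz1). New calls stood at 1.12 for Lyz1 in RNAPII-pS2 (after 1 hr IL-4). With an overlap of 50%, signs turned at 0.15 for 11.5 kb after the Lyz1 start in RNAPII-pS2 (IL-4 PT under LPS) and 0.058 for 9.1 kb before the Lyz1 start in RNAPII-pS2 and 0.57 for 11.6 kb after the Lyz1 start in RNAPII-pS5 (interaction). With genes that had a peak in at least 1 sample, calls were lost at −0.73 for Lyz1 in RNAPII-pS5 (IL-4 PT), −0.58 for Lyz1 in RNAPII-pS5 (LPS), and −1.57 for Lyz2 in RNAPII-pS5 (interaction). Calls were gained at 0.70 for Lyz1 in RNAPII-pS2 (after 1 hr IL-4). With genes that had a peak in every sample, calls were lost at −0.73 for Lyz1 in RNAPII-pS5 (IL-4 PT) and −0.58 for Lyz1 in RNAPII-pS5 (LPS). Newly called were 0.70 for Lyz1 in RNAPII-pS2 (after 1 hr IL-4), −1.32 for Lyz2 in RNAPII-pS2 and −0.57 for Lyz1 in p65 (IL-4 PT), and −1.35 for Lyz2 in RNAPII-pS2 (IL-4 PT under LPS). With the upper 50% of peaks, calls were lost at −1.10 for Lyz1 in H3K27Ac (after 1 hr IL-4), −0.61 for Lyz1 in RNAPII-pS5 (IL-4 PT), −0.61 for Lyz1 in RNAPII-pS5 (LPS), −0.65 for Lyz1 in p65 (IL-4 PT under LPS), −0.99 for Lyz2 in RNAPII-pS5 (interaction), and −2.95 for p65 and −0.87 for RNAPII-pS2 (Lyz2 against Lyz1). The sign turned at 0.016 for Lyz2 in p300 (after 1 hr IL-4), 0.22 for Lyz1 in RNAPII-pS2 (IL-4 PT), 0.14 for 11.5 kb after the Lyz1 start in RNAPII-pS2 and −0.18 for 20.5 kb before the Lyz1 start in p65 (IL-4 PT under LPS), 0.12 for Lyz2 in RNAPII-pS2, 0.21 for Lyz2 in p65, 0.040 for 9.1 kb before the Lyz1 start in RNAPII-pS2, 0.43 for 11.6 kb after the Lyz1 start in RNAPII-pS5, and −0.33 for 20.5 kb before the Lyz1 start in p65 (interaction), and 0.17 for RNAPII-pS5 (Lyz2 against Lyz1). New calls stood at 0.74 for Lyz1 in RNAPII-pS2 (after 1 hr IL-4), −1.61 for Lyz2 in RNAPII-pS2 (IL-4 PT), and −1.28 for Lyz2 in p65 (LPS).

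Over the fits without 1 sample the values after 1 hr IL-4 ran from −1.90 to −1.04 for Lyz1 in H3K27Ac, −2.35 to 0.076 for Lyz2 in HDAC3, −1.27 to −0.87 for Lyz2 in PU.1, −0.25 to 0.071 for Lyz2 in RNAPII-pS5, −1.11 to −0.22 for Lyz1 in p300, −0.33 to 0.39 for 9.1 kb before the Lyz1 start in HDAC2, −1.29 to 0.54 for 10.5 kb after the Lyz1 start in PU.1, −0.11 to 0.031 for 9.1 kb before the Lyz1 start in PU.1, and −0.14 to 0.068 for 16.1 kb after the Lyz1 start in RNAPII-pS2. For IL-4 PT they ran from −0.16 to 0.14 for Lyz1 in RNAPII-pS2, −1.47 to −1.16 for Lyz2 in RNAPII-pS2, −0.88 to −0.57 for Lyz1 in RNAPII-pS5, −1.72 to −1.44 for Lyz2 in RNAPII-pS5, −0.039 to 0.30 for 9.1 kb before the Lyz1 start in RNAPII-pS2, and −0.31 to 0.29 for 20.5 kb before the Lyz1 start in p65. For LPS they ran from −0.25 to 0.050 for Lyz1 in RNAPII-pS2, −1.83 to −1.21 for Lyz2 in RNAPII-pS2, −0.63 to −0.47 for Lyz1 in RNAPII-pS5, −1.27 to −0.9999 for Lyz2 in RNAPII-pS5, −0.29 to 0.048 for 9.1 kb before the Lyz1 start in RNAPII-pS2, and −0.29 to 0.28 for 9.2 kb before the Lyz1 start in RNAPII-pS5. For IL-4 PT under LPS they ran from −1.97 to −0.74 for Lyz2 in RNAPII-pS2, −1.17 to −1.06 for Lyz1 in RNAPII-pS5, −0.87 to −0.55 for Lyz1 in p65, −0.17 to 0.25 for Lyz2 in p65, −0.051 to 0.18 for 9.1 kb before the Lyz1 start in RNAPII-pS2, and −0.23 to 1.60 for 20.5 kb before the Lyz1 start in p65. For the interaction they ran from −0.29 to 0.0064 for Lyz1 in RNAPII-pS2, −0.66 to 0.57 for Lyz2 in RNAPII-pS2, −1.89 to −1.26 for Lyz2 in RNAPII-pS5, −0.29 to 0.021 for Lyz1 in p65, −0.43 to 1.77 for 11.5 kb after the Lyz1 start in RNAPII-pS2, −0.24 to 0.099 for 9.1 kb before the Lyz1 start in RNAPII-pS2, −0.71 to 0.034 for 9.2 kb before the Lyz1 start in RNAPII-pS5, and −0.27 to 1.55 for 20.5 kb before the Lyz1 start in p65. For Lyz2 against Lyz1 they ran from −3.15 to −2.90 for p65, −1.08 to −0.76 for RNAPII-pS2, and −0.21 to 0.070 for RNAPII-pS5.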
